A study of Mus musculus with 24 samples.

Results

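The replication-dependent histone genes encode the bulk of the histone proteins that package newly copied DNA. They were taken here as every row of the count table whose gene symbol starts with Hist1h, Hist2h, Hist3h or Hist4h, the names of the gene clusters in the mouse annotation used (GENCODE M21, genome build GRCm38). That rule found 62 of 39017 rows, of which 59 were protein coding and 3 were annotated as pseudogenes (Hist1h2aj, Hist1h2al and Hist3h2bb-ps). By the protein they encode, 6 were linker histone H1 genes, 20 were H2A, 16 were H2B, 7 were H3 and 13 were H4 genes. By name, 49 were Hist1 genes on chromosome 13, 9 Hist2 genes on chromosome 3, 3 Hist3 genes on chromosome 11 and 1 was Hist4h4 on chromosome 6. The pseudogene Hist1h2al starts at base 51202727, apart from the other Hist1 genes, which lie between bases 21715763 and 23934851. A further 8 annotated members were not analysed here.

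A chromosome's DNA is wound around octamers of the core histones H2A, H2B, H3 and H4, and H1 binds the linker DNA between them. The genes for these proteins are transcribed mostly in S phase, when DNA is replicated, and most of their messenger RNAs end in a conserved stem-loop in place of a poly(A) tail, which the stem-loop binding protein Slbp recognises. A library made by selecting poly(A) RNA loses most of these transcripts, whereas one made by removing ribosomal RNA keeps them. In skin, the dividing cells that make them sit mainly in the basal epidermis and in the matrix of growing hair follicles, and activated lymphocytes divide as well.

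The data were 24 RNA-seq libraries of dorsal skin from female C3H/HeJ mice of about 30 weeks at termination, with 6 libraries in each of 4 groups. C3H/HeJ is an inbred strain in which alopecia areata (AA), an autoimmune loss of hair, can be induced by grafting skin from an affected mouse. The healthy group was untreated and had no disease, and the AA group had graft-induced disease and, per the study, no treatment. The titles of the AA libraries hold the letters Vec, which the labels do not explain. The systemic JAK1i group had AA and was given a JAK1 kinase inhibitor, Cmpd A (AZ13748709), in the food for 4 weeks at about 100 mg/kg once daily, and its skin was taken as a biopsy from living mice. The 8w off Tx group was sampled at termination, 8 weeks after that treatment ended. The study's methods describe the last pair of groups as the same 6 mice sampled at both times, but the labels do not say which libraries share a mouse, so p-values treat them as separate animals. The RNA was of low integrity and was sequenced after ribosomal depletion without fragmentation, per the methods, while a label calls it poly(A) RNA. The libraries hold no biopsies of untreated AA mice, so age and the kind of sampling cannot be told apart from treatment where systemic JAK1i skin is compared.

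The stem-loop is shown first because it is the feature that sets these messages apart from other mRNAs. In the GENCODE M21 transcripts, a 16-base stem-loop was found in 40 of the 62 members. It is printed 5′ to 3′ for 8 members of the 5 classes that the values turn on, with the stem-loop in capitals and 5 flanking bases on each side in lower case.
Hist1h1d: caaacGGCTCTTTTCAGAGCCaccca
Hist1h2ae: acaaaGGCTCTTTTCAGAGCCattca
Hist1h2bj: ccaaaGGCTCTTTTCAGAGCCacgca
Hist1h2bk: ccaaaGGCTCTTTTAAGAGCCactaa
Hist1h3c: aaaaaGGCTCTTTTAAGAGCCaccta
Hist1h4d: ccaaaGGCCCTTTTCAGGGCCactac
Hist1h4j: ctaaaGGTCCTTTTCAGGACCaccac
Hist2h4: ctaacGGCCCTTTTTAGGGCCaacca

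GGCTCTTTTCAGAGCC was the most common form, in 23 members of the H1, H2A, H2B and H3 classes. Counted from 1 at the 5′ end of the 16 bases, the form of 7 H4 members differed from it by T4C and A13G, a paired change that keeps the stem. A further 5 members, Hist1h2bk and Hist1h3c among them, carried C10A in the loop. In 2 H4 members, Hist2h4 among them, the changes were T4C, C10T and A13G. Of the 40 annotated transcripts with a stem-loop, 21 ended within 100 bases of it and 19 ran on for more than 100 bases. No stem-loop was found in the annotated transcripts of 22 members, Hist1h1a, Hist1h1b and Hist2h2be among them, which says only that these letters were not in the annotated models.

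Promoters are shown for 4 members whose levels are described below: an H1 gene and an H2B gene that were higher in AA skin, an H2A gene that shares its promoter region with Hist2h2be, and an abundant H4 gene. Each run covers 250 bases before to 50 bases after the RefSeq start on GRCm38.p6 and is written 5′ to 3′ in the direction of the gene. Capitals mark the octamer ATTTGCAT, CCAAT and TATAAA, each on either strand.
Hist1h1b promoter, chr13:21780576-21780875 (minus strand): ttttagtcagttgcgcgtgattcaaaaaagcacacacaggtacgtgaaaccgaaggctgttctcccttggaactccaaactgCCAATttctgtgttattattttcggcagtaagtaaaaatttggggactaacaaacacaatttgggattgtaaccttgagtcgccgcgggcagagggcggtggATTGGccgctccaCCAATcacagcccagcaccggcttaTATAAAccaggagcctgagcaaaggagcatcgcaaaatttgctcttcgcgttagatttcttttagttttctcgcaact
Hist1h2bk promoter, chr13:22035571-22035870 (plus strand): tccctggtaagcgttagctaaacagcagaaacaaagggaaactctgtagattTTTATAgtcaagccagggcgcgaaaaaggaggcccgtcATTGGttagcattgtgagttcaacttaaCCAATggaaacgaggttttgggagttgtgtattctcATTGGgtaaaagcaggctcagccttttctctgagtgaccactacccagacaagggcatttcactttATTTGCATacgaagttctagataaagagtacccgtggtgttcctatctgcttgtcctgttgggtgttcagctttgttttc
Hist2h2ac promoter, chr3:96220831-96221130 (minus strand): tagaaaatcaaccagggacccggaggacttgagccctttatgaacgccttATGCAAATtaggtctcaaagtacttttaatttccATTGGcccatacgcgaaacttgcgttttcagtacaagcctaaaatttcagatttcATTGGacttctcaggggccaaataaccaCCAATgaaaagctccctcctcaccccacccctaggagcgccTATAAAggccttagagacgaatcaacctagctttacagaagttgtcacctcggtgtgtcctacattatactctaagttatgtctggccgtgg
Hist1h4h promoter, chr13:23530794-23531093 (plus strand): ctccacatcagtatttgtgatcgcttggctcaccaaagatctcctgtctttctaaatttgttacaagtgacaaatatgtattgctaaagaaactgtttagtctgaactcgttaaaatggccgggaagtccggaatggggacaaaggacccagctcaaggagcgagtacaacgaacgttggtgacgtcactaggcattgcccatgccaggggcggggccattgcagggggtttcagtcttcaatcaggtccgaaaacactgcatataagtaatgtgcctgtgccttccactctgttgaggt

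Promoters could be matched by Entrez gene identifier for 55 of the 62 members, as 56 windows. The octamer ATTTGCAT, the binding motif of POU-domain factors such as Oct1, was in 21.4% of these windows and in 1.74% of all 32851 promoters of the same length. It was found in 7 of 18 H2A and 5 of 14 H2B windows and in none of the H1, H3 or H4 windows. CCAAT was in 83.9% of member windows against 37.4% of all, but in only 3 of 12 H4 windows. TATAAA was in 57.1% against 13.6%. A match is a description of the letters and not a bound site.

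The libraries held 3444193 to 11233020 counts in genes, and the 62 members together took 0.0596% to 0.205% of them. Of the members, 50 reached the minimum of 10 counts in at least 6 libraries and were tested among 16558 genes, namely 5 H1, 15 H2A, 12 H2B, 5 H3 and 13 H4. Just inside that minimum was Hist1h2ap, with 10 counts in 6 libraries, and just outside were Hist1h2bp (5 libraries), Hist2h2ab and Hist3h2ba (4 libraries each). Libraries healthy A and E stood apart from the other healthy libraries in skeletal muscle markers, with summed levels of 277 and 228 CPM against 3024 to 17351 CPM, and 8w off Tx A and E in hair matrix and hair shaft markers, so results are also given without each of these pairs. A transcript made of many near-identical copies is hard to count, and 28 members had fewer than 50% of their 76-base windows (the read length) unique among annotated transcripts. Hist2h2aa1, Hist2h2aa2, Hist2h3c1 and Hist2h3b had no unique window and 0 counts in every library, whereas the deposited TPM listed Hist2h2aa2 at a mean of 151 TPM (48.8 to 206) and Hist2h3b at 42.0 TPM. A count of 0 for these 4 genes therefore says nothing about their expression. The members that had 0 counts in every library held a median of 10.8% of the members' summed TPM.

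Per length, on the deposited TPM scale, H4 genes held the largest share of the members' summed level, a median of 38.1% over the 24 libraries, followed by H2A at 23.8%, H2B at 20.4%, H1 at 9.48% and H3 at 7.78%. Hist2h2aa2 and Hist1h4d were the highest single members as listed, with median shares of 8.37% and 7.86%. Hist2h2aa2 has no unique window, so its share cannot be told apart from that of its copies. On raw counts, which favour long transcripts, Hist1h1c led with 13.02% and H1 as a class held 33.4%. The testis forms, which skin should lack, were at or near 0: Hist1h2aa had 0 counts in all 24 libraries, Hist1h2ba had at most 1 count in a library and the H1 variant gene Hist1h1t had at most 5.

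In CPM, counts per 1000000 counts scaled by TMM, the level summed over all members was 833 to 1256 CPM (median 1165) in healthy skin, 1307 to 1862 (median 1594) in AA skin and 601 to 981 (median 788) in systemic JAK1i skin, and 984 to 2070.5 CPM (median 1436) in 8w off Tx skin. The systemic JAK1i libraries were thus the lowest as a group, the 6 AA libraries all lay above the 6 healthy ones, and the 8w off Tx libraries spread from the healthy range to above the AA range. H1 genes followed that order, at 253 to 395 CPM (median 374) in healthy skin, 439.8 to 627 (median 529) in AA skin and 206 to 356 (median 266) in systemic JAK1i skin and 379.5 to 630.4 CPM (median 503) in 8w off Tx skin. H4 genes did not separate AA from healthy skin in their sum, which was 289 to 427 CPM (median 412) in healthy skin, 356 to 484 (median 429) in AA skin and 218 to 319.5 (median 249) in systemic JAK1i skin and 294 to 629.9 CPM (median 408) in 8w off Tx skin. In bulk tissue, fewer cells of a type and less RNA per cell cannot be told apart.

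**Figure D1:**
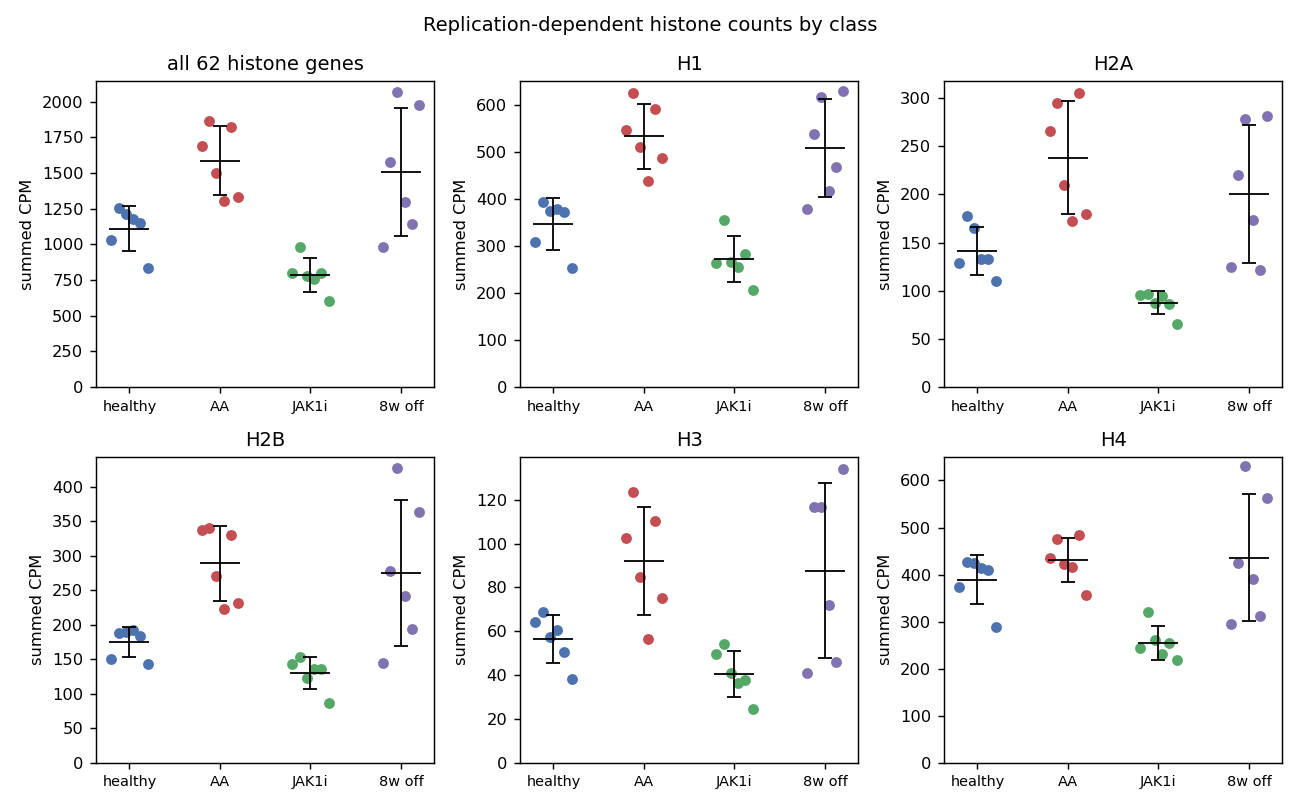
Summed CPM of all 62 members and of each histone class in each of the 24 libraries, by group, with points for libraries and lines for group means and SD. For the H1 genes the 6 AA libraries lie above the 6 healthy and the 6 systemic JAK1i libraries, and for the H4 genes the AA and healthy libraries overlap.

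AA vs healthy asks which members differed with the disease. Of the 50 members tested, 26 were higher and 2 lower in AA skin at an adjusted p below 0.05 (edgeR quasi-likelihood test, adjusted over all genes), while 39.8% of all 16558 genes were called, 20.6% higher and 19.2% lower. The median log2 fold change of the members was 0.73, and that of all genes was 0. By class, 4 of 5 H1, 9 of 15 H2A, 7 of 12 H2B, 3 of 5 H3 and 3 of 13 H4 genes were higher, and 1 H2B and 1 H4 gene were lower. Of the Hist1 genes by name, 25 of 44 tested were higher and 0 lower, and of the Hist2 genes 1 of 4 was higher and 2 lower. Of the members with at least 50% unique windows, 16 of 28 were higher, and of those with fewer, 10 of 22. The study's stricter thresholds, an FDR below 0.001 and more than 4-fold, left 1 member, Hist1h2ao, which is named because it was the only one and whose near-identical copy Hist1h2ap is described further on, while 3.41% of all genes passed them. Without healthy A and E, 23 members were called, with 33.2% of all genes.

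**Figure D2:**
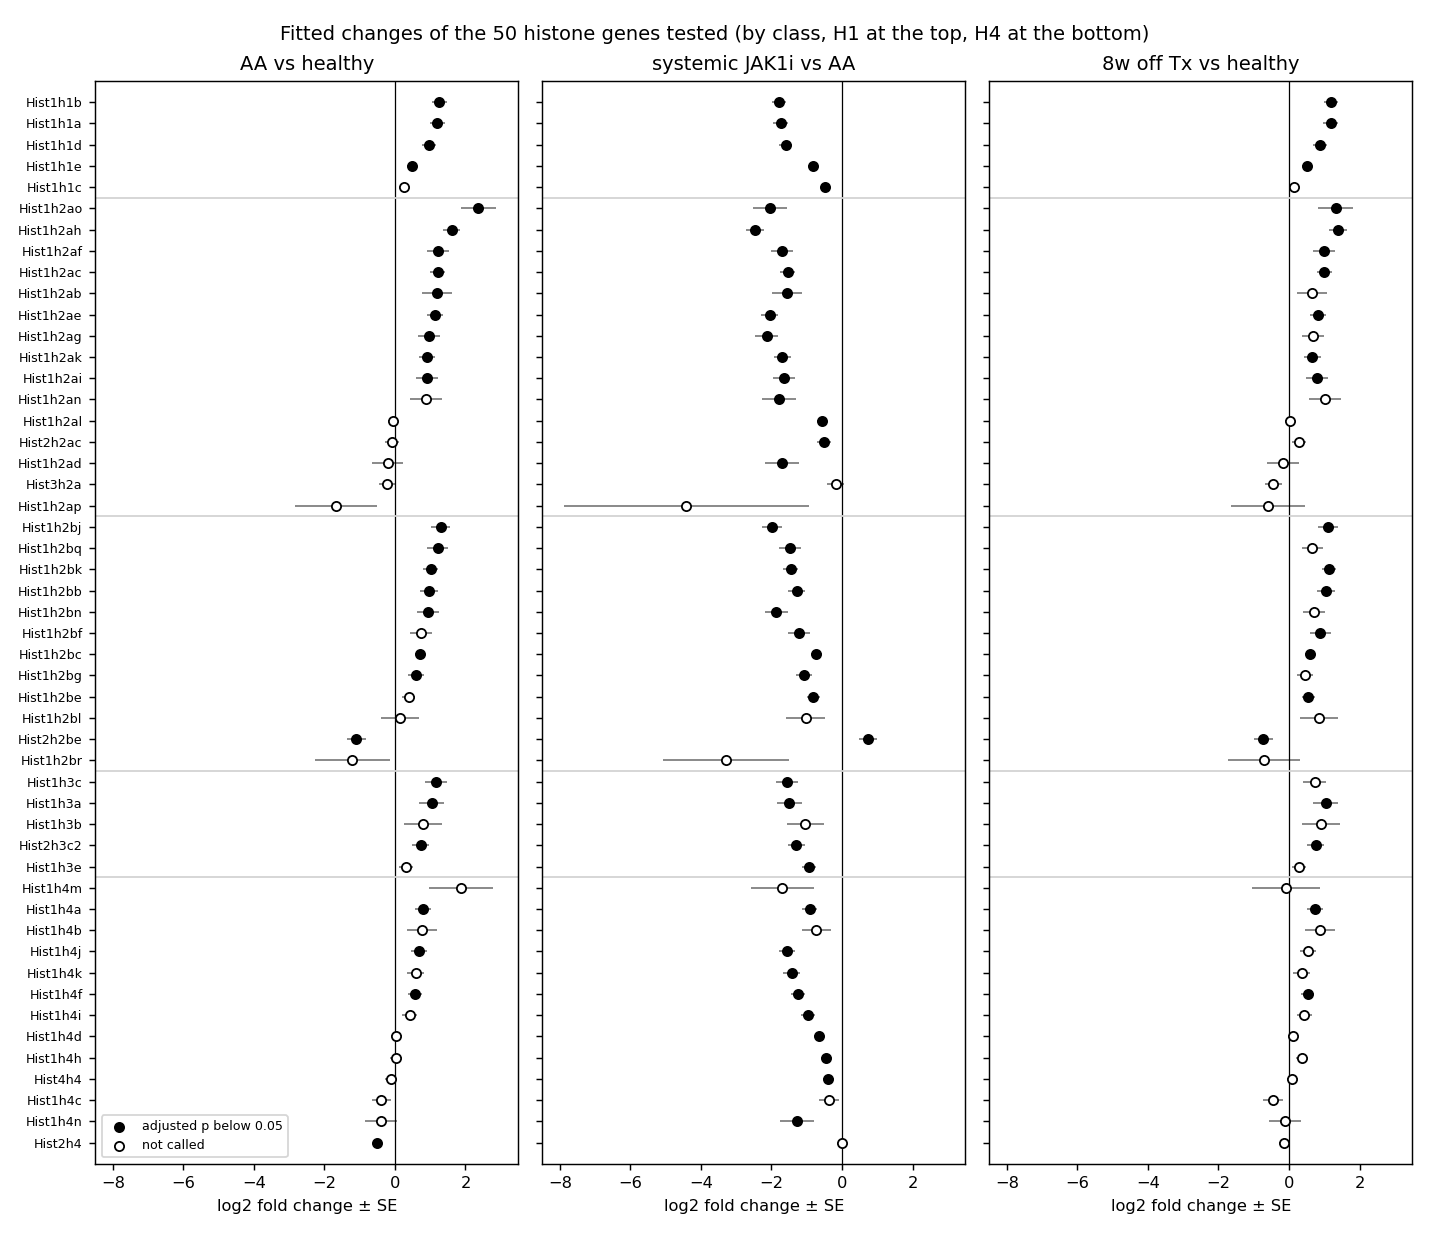
Log2 fold change of each of the 50 members tested, by histone class, with bars for its SE, in AA vs healthy, systemic JAK1i vs AA and 8w off Tx vs healthy, with filled points for members called at an adjusted p below 0.05. In AA vs healthy 26 points are called above 0 and 2 below, and in systemic JAK1i vs AA 40 are called below 0 and 1 above.

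Among the H1 genes, Hist1h1a and Hist1h1b encode linker histones typical of dividing cells. Hist1h1b (chr13:21779883-21780625, minus strand) lay at 18.7 to 40.4 CPM (median 25.6) in healthy skin and 45.9 to 80.9 (median 67.5) in AA skin, and the 2 groups did not overlap. Its log2 fold change was 1.26 (SE 0.21, adjusted p = 6.0e-05). Hist1h1a lay at 13.2 to 25.7 CPM (median 20.3) in healthy skin and 26.6 to 53.7 (median 48.7) in AA skin, again without overlap, with a log2 fold change of 1.20 (SE 0.21, adjusted p = 1.3e-04). Hist1h1d rose from a median of 57.4 to 116 CPM, by 0.97 (SE 0.19, adjusted p = 3.8e-04) on the log2 scale. Hist1h1e, one of the main H1 subtypes of somatic cells, rose by 0.49 (SE 0.14, adjusted p = 0.0065). It overlaps Hist1h2be and the pseudogene Gm11398 on the same strand, and reads there were not separated. Hist1h1c, which had the most counts of any member and is also made outside S phase, did not pass the test. Its levels of 106 to 163 CPM (median 154) in healthy skin and 162 to 189.6 (median 175) in AA skin overlapped, with a log2 fold change of 0.26 (SE 0.12, adjusted p = 0.078).

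Among the H2A genes, Hist1h2ah (chr13:22035164-22035568, minus strand) had the smallest adjusted p of all members. Only 8.5% of its 76-base windows were unique, so its single-gene values, here and below, are uncertain. Hist1h2ah lay at 2.37 to 7.48 CPM (median 5.52) in healthy skin and 11.9 to 19.99 (median 16.3) in AA skin, so that the lowest AA library was above the highest healthy one. Its log2 fold change was 1.61 (SE 0.25, adjusted p = 2.9e-05). Hist1h2ac lay at 5.70 to 6.97 CPM (median 6.46) in healthy skin and 11.95 to 18.9 (median 14.7) in AA skin and rose by 1.21 (SE 0.22, adjusted p = 1.4e-04); it overlaps an annotated rRNA gene, Gm24991, whose reads were not separated here. Hist1h2ae rose by 1.13 (SE 0.23, adjusted p = 3.9e-04), also without overlap between the groups. Hist1h2ak, an abundant H2A gene, rose by 0.91 (SE 0.24, adjusted p = 0.0038), and its groups overlapped at their edges. Hist1h2al, the other abundant one and annotated as a pseudogene, lay at 29.5 to 41.7 CPM (median 36.6) in healthy skin and 27.6 to 45.6 (median 33.2) in AA skin, with a log2 fold change of −0.04 (SE 0.14, adjusted p = 0.83).

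Among the H2B genes, Hist1h2bk (chr13:22035870-22036345, plus strand) lay at 8.11 to 16.7 CPM (median 9.72) in healthy skin and 17.6 to 28.02 (median 21.7) in AA skin and rose by 1.02 (SE 0.21, adjusted p = 5.0e-04), without overlap. Hist1h2bj rose by 1.30 (SE 0.27, adjusted p = 6.6e-04) and Hist1h2bc by 0.72 (SE 0.15, adjusted p = 5.9e-04). Hist1h2bq, the most abundant H2B gene by counts, rose by 1.22 (SE 0.30, adjusted p = 0.0026), but shares most of its windows with Hist1h2br. Hist1h2be did not pass the test, with 28.8 to 35.4 CPM (median 32.6) in healthy skin and 35.4 to 56.7 (median 38.9) in AA skin and a log2 fold change of 0.39 (SE 0.18, adjusted p = 0.09). It overlaps Hist1h1e on the same strand, so their reads cannot be told apart there. Hist2h2be, with 5 to 20 counts in an AA library, went the other way. It lay at 2.89 to 5.95 CPM (median 4.44) in healthy skin and 0.957 to 2.94 (median 2.22) in AA skin and fell by 1.10 (SE 0.27, adjusted p = 0.0021) on the log2 scale, and only the lowest healthy and the highest AA library overlapped. On median-centred TPM neither Hist2h2be (adjusted p = 0.0641) nor Hist1h2bq (0.108) was called.

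Of the H3 genes, Hist1h3c rose by 1.17 (SE 0.32, adjusted p = 0.0056), Hist1h3a by 1.05 (SE 0.35, adjusted p = 0.021) and Hist2h3c2 by 0.73 (SE 0.24, adjusted p = 0.018). All 3 had overlapping groups, and the calls of Hist1h3a and Hist2h3c2 were lost when 1 library was left out (AA B or healthy F for Hist1h3a, adjusted p = 0.0522 to 0.0816, and AA E for Hist2h3c2, adjusted p = 0.0510) or when healthy A and E were left out (adjusted p = 0.0845 and 0.0731). Hist1h3a was not called on median-centred TPM either (adjusted p = 0.110). Hist1h3e, the H3 gene with the most counts, had a log2 fold change of 0.32 (SE 0.20, adjusted p = 0.23).

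The H4 genes, all of which encode the same protein, had 3 of 13 members higher. Hist1h4a lay at 8.81 to 15.3 CPM (median 12.99) in healthy skin and 17.5 to 26.3 (median 21.4) in AA skin and rose by 0.80 (SE 0.22, adjusted p = 0.0056), and Hist1h4j rose by 0.68 (SE 0.22, adjusted p = 0.017). Hist1h4d (chr13:23581598-23582735, plus strand) and Hist1h4h, the most abundant H4 genes by counts, had log2 fold changes of 0.04 (SE 0.15, adjusted p = 0.86) and 0.03 (SE 0.17, adjusted p = 0.92). Hist1h4d lay at 58.6 to 93.3 CPM (median 82.6) in healthy skin and 66.1 to 99.5 (median 81.7) in AA skin, and the groups overlapped over most of their ranges. Hist2h4 lay at 21.1 to 30.2 CPM (median 27.1) in healthy skin and 16.6 to 22.6 (median 18.05) in AA skin and fell by 0.51 (SE 0.12, adjusted p = 0.0021) on the log2 scale. No test compared the classes with each other.

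**Figure D3:**
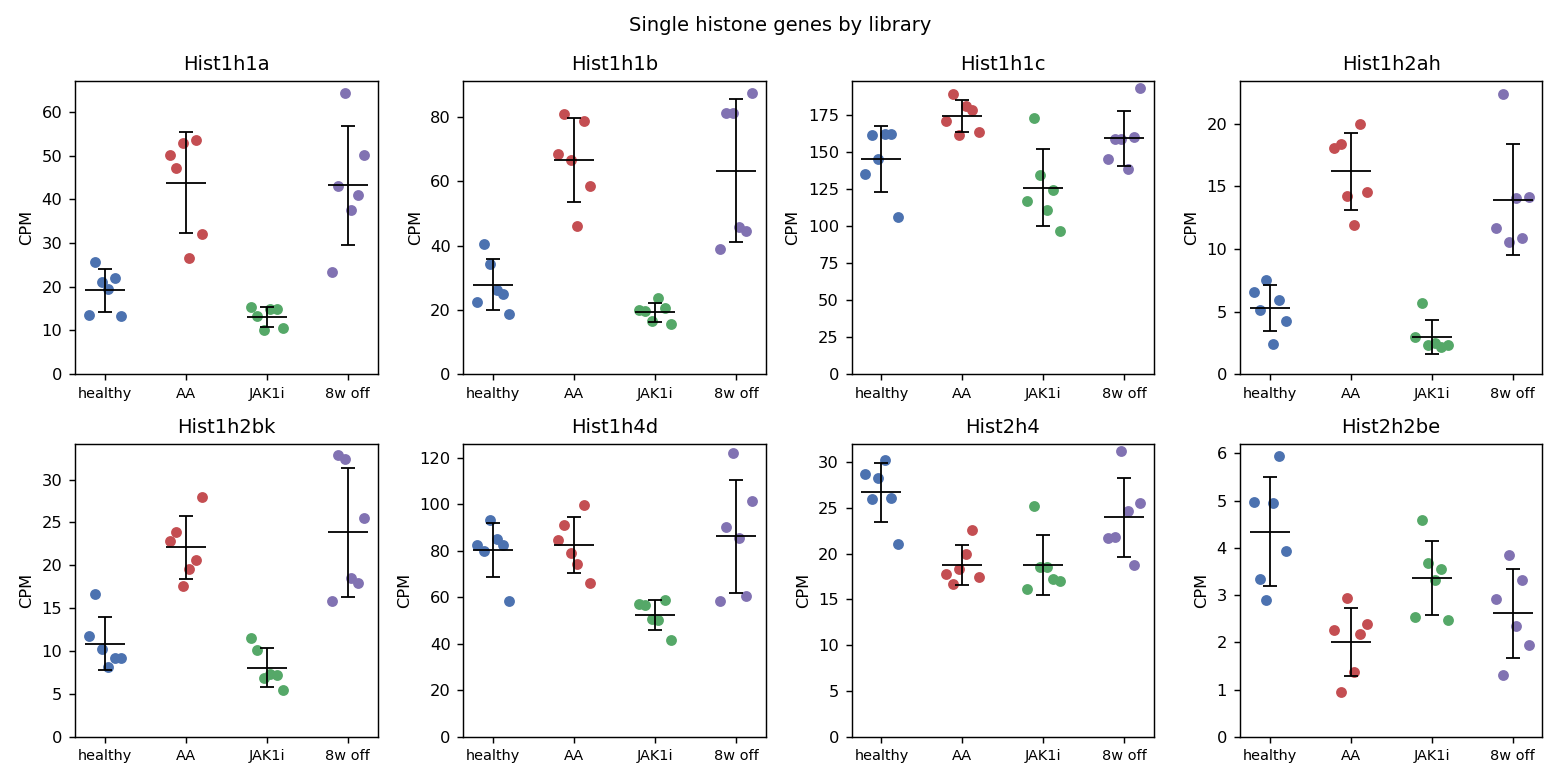
CPM of 8 members (Hist1h1a, Hist1h1b, Hist1h1c, Hist1h2ah, Hist1h2bk, Hist1h4d, Hist2h4 and Hist2h2be) in each library by group, with group means and SD. Hist1h2ah, Hist1h1a and Hist1h1b are higher in the AA and 8w off Tx libraries than in the systemic JAK1i libraries, and Hist2h2be has its lowest median in the AA libraries.

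The comparison of systemic JAK1i vs AA asks what differed after 4 weeks of the inhibitor. Of the 50 members, 40 were lower and 1 higher, with 47.1% of all genes called (24.4% lower and 22.7% higher). The median log2 fold change was −1.36 for the members and 0.00 for all genes. Every H1 gene tested was lower (5 of 5), as were 13 of 15 H2A, 9 of 12 H2B, 4 of 5 H3 and 9 of 13 H4 genes. Hist1h2ah fell to 2.14 to 5.70 CPM (median 2.42) in systemic JAK1i skin, by 2.46 (SE 0.26, adjusted p = 3.9e-07) on the log2 scale, and no treated library reached the lowest AA one. Hist1h1b fell to 15.5 to 23.7 CPM (median 19.7) in systemic JAK1i skin, by 1.78 (SE 0.21, adjusted p = 1.3e-06). Hist1h2ae fell by 2.05 (SE 0.23, adjusted p = 9.2e-07) and Hist1h2bj by 1.99 (SE 0.28, adjusted p = 8.4e-06). Hist1h4d, which had not differed detectably between AA and healthy skin, fell to 41.6 to 58.8 CPM (median 53.6) in systemic JAK1i skin, by 0.65 (SE 0.15, adjusted p = 0.0011). Hist1h1c fell by 0.47 (SE 0.12, adjusted p = 0.0022). Hist2h2be, at 2.48 to 4.59 CPM (median 3.44) in systemic JAK1i skin, rose by 0.74 (SE 0.27, adjusted p = 0.025); that call was lost without AA B, AA D or systemic JAK1i B (adjusted p = 0.0563 to 0.0712) and on median-centred TPM, where the value was 0.18 (adjusted p = 0.427). On log2(TPM + 1) it lay 0.08 below the all-gene median of that scale. Hist2h4 had a log2 fold change of 0.00 (SE 0.12, adjusted p = 0.99).

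Against healthy skin, the systemic JAK1i libraries differed in few members by the test. None of the 50 was higher and 3 were lower, with 1.03% of all genes called (0.538% lower and 0.495% higher). The 3 were Hist1h2al at −0.62 (SE 0.14, adjusted p = 0.032), Hist2h4 at −0.51 (SE 0.12, adjusted p = 0.042) and Hist1h4d at −0.61 (SE 0.15, adjusted p = 0.046) on the log2 scale. Hist1h2al lay at 29.5 to 41.7 CPM (median 36.6) in healthy skin and 20.8 to 27.5 (median 22.3) in systemic JAK1i skin, without overlap. The members' median log2 fold change was −0.53, beside −0.01 for all genes, and 29 members were lower and none higher at an unadjusted p below 0.05, which 9% of all genes passed as lower and 7.83% as higher. The count of 3 depended on single libraries: it was 0 without healthy A, healthy C or any one of systemic JAK1i C, D, E or F, was 1 without healthy D, healthy E or systemic JAK1i A, and was 14 without healthy F. Without healthy F, 3.93% of all genes were called. The count was also 8 without 8w off Tx C (0.864% of all genes) and 5 without 8w off Tx E (1.26%). Without healthy A and E it was 1 (0.0725% of all genes), and without 8w off Tx A and E it was 12 (1.76%). DESeq2 called 16 members and 3.69% of all genes, limma-voom called 19 members and 12% of all genes, and with the replicate letter as a block the count was 1, with 0.634% of all genes. Among the 50 members, the group with the lowest median was systemic JAK1i for 46. The comparisons of systemic JAK1i skin with AA and with healthy skin share the same 6 treated libraries.

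At 8 weeks after treatment ended, 21 of the 50 members were higher than in healthy skin and 1 was lower, with 32.3% of all genes called (16.7% higher and 15.6% lower). The median log2 fold change was 0.66, and 0.01 for all genes. By class 4 of 5 H1, 7 of 15 H2A, 6 of 12 H2B, 2 of 5 H3 and 2 of 13 H4 genes were higher. Hist1h2ah lay at 10.5 to 22.4 CPM (median 12.9) in 8w off Tx skin and was higher than in healthy skin by 1.39 (SE 0.25, adjusted p = 2.2e-04). Hist1h1b, at 38.9 to 87.6 CPM (median 63.5) in 8w off Tx skin, was higher by 1.19 (SE 0.21, adjusted p = 1.8e-04). Hist2h2be, at 1.31 to 3.86 CPM (median 2.63) in 8w off Tx skin, was lower by 0.73 (SE 0.26, adjusted p = 0.034), a call lost without any one of healthy A, D or E or 8w off Tx B, D or F (adjusted p = 0.0586 to 0.0874). That call was also lost without healthy A and E (adjusted p = 0.186), with no filter (adjusted p = 0.0543), with only the 2 groups compared (adjusted p = 0.0603) and on median-centred TPM, at −0.13 (adjusted p = 0.618). On log2(TPM + 1) the gene lay 0.14 above the all-gene median. The count of 22 members called was 14 when either 8w off Tx B or 8w off Tx C was left out, with 27.6% and 28.3% of all genes called.

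The 8w off Tx libraries were not alike. Their summed member level was 984 CPM in library A, 1577 in B, 2070.5 in C, 1296 in D, 1141 in E and 1974 in F. Libraries A and E stood apart in the hair matrix and hair shaft markers too, with summed levels of 72.6 and 65.2 CPM against 580.4 to 1251 CPM in the other 4. The healthy libraries held 40.9 to 81.9 CPM of these markers, the AA libraries 430.4 to 1602 CPM and the systemic JAK1i libraries 25.3 to 64.1 CPM. Libraries A and E also had the lowest summed member levels of the 8w off Tx group, so leaving them out raises its level. Without 8w off Tx A and E, 35 members were called against healthy skin, and without healthy A and E 11 were. These counts are given without the share of all genes called, so they are not a result about the members alone. How far the cells that carry these markers enter the histone results was not tested.

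Against AA skin, none of the 50 members was called after the 8 weeks without treatment by edgeR, DESeq2 or limma-voom, with 1.35% of all genes called (0.719% higher and 0.628% lower), and at an unadjusted p below 0.05 there were 1 higher and 2 lower members, with 9.77% of all genes higher and 8.58% lower. The members' median log2 fold change was −0.04. Hist1h2ah had −0.22 (SE 0.23, adjusted p = 0.66) and Hist1h1b −0.07 (SE 0.20, adjusted p = 0.89), values that do not show the groups to be alike. Against systemic JAK1i skin, 42 of 50 were higher and 0 lower, with 35.4% of all genes called (19% higher and 16.4% lower), and the median was 1.20. The higher members were 5 H1, 12 H2A, 11 H2B, 4 H3 and 10 H4 genes. Hist1h2ah was higher by 2.24 (SE 0.26, adjusted p = 2.2e-06), Hist1h1a by 1.72 (SE 0.21, adjusted p = 5.1e-06) and Hist1h4h by 0.78 (SE 0.17, adjusted p = 0.001). Of the members tested, 27 had their highest group median in AA skin, 14 in 8w off Tx skin, 9 in healthy skin and none in systemic JAK1i skin.

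The scale of the values matters for these counts. The authors also deposited TPM, a length-scaled share of a library, in which protein-coding genes held only 8.20% to 29.6% of a library and genes annotated as miRNA 12.4% to 64.6%, and each gene's TPM is a share of that total. On log2(TPM + 0.1) the median of all genes moved by −0.29 in AA vs healthy, 0.65 in systemic JAK1i vs AA, −0.80 in 8w off Tx vs healthy and −1.16 in 8w off Tx vs systemic JAK1i. Without centring, the members called were 2 higher and 1 lower in AA vs healthy, 2 higher and 18 lower in systemic JAK1i vs AA, 0 higher and 10 lower in 8w off Tx vs healthy and 1 higher and 7 lower in 8w off Tx vs systemic JAK1i, with 16.1%, 56.1%, 71.4% and 86.9% of all genes called. With each library centred at its median they were 30 higher and 1 lower, 0 and 44, 11 and 1, and 44 and 0. All genes called were then 34.1% in AA vs healthy, 40.1% in systemic JAK1i vs AA and 26.5% in 8w off Tx vs healthy. That share is not given for 8w off Tx vs systemic JAK1i. Relative to the median of all genes, the members' median was 0.71, −1.36, 0.47 and 1.17 in the same 4 comparisons, so the directions given here are relative to the other genes of a library.

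Near-identical copies divided their counts unevenly. Hist1h2bq and Hist1h2br, 2 H2B genes, shared 96.0% and 87.5% of their 76-base windows with each other, and Hist1h4m and Hist1h4n shared 89.0% and 82.0%. Hist1h2bq had 65 to 949 counts in a library, whereas Hist1h2br had fewer than 10 in 17 of 24 libraries. Hist1h2ao had 17 to 476 counts, whereas its partner Hist1h2ap had fewer than 10 in 18 and reached 10 in 3 healthy, 2 AA, 0 systemic JAK1i and 1 8w off Tx libraries. Hist1h4n had 29 to 485 counts and Hist1h4m 3 to 311. In the Hist1h2ao and Hist1h2bq pairs the second copy was thus near 0 in most libraries while the first was well counted, and Hist1h4m was under 10 counts in 10 libraries. The 6 libraries with at least 10 Hist1h2ap counts were healthy C, D and E, AA C and E and 8w off Tx C. The same 6 libraries had 27 to 99 Hist1h2br counts, and the other 18 had at most 11. The cause of this split was not tested. The single-gene values of these 6 members are uncertain for that reason. With the copies of each pair summed, 28 of 47 features were called in AA vs healthy and 41 in systemic JAK1i vs AA, the same counts as with the copies apart.

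**Figure D4:**
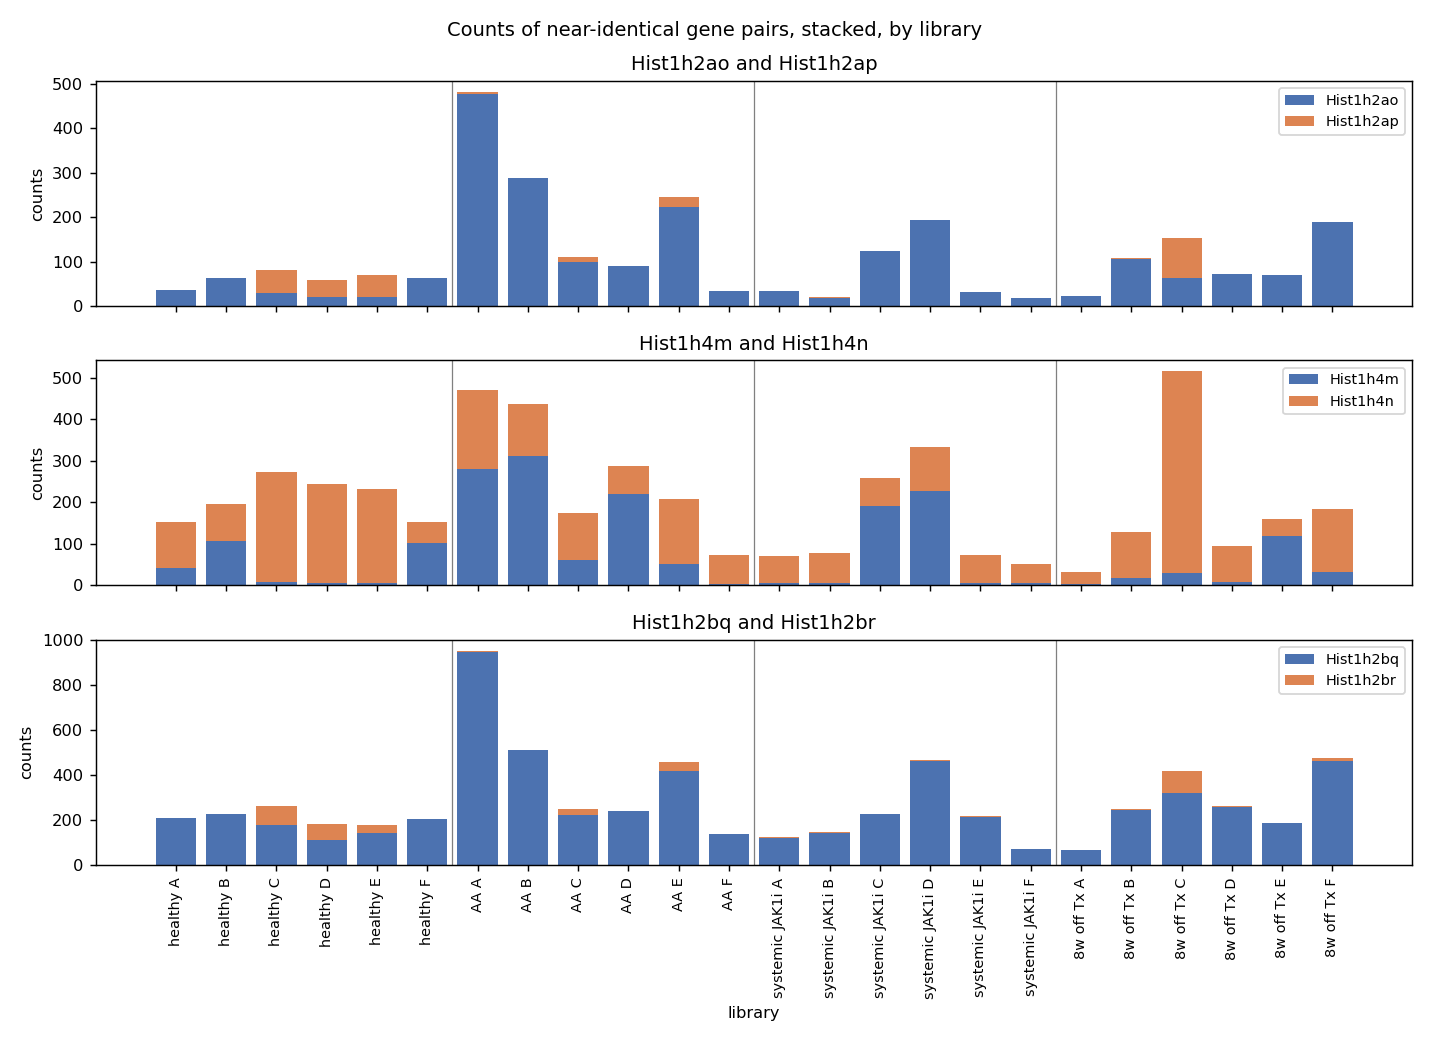
Raw counts (y axis, linear) of both members of 3 near-identical gene pairs, stacked, in each of the 24 libraries. One member of a pair is near 0 in many libraries where the other is well counted, with Hist1h2ap under 10 counts in 18 libraries.

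Many H2A and H2B genes lie head to head and share 1 promoter region. There were 13 such pairs, with 10 in which both genes were tested. In AA vs healthy both genes were higher in 6 pairs, 1 gene in 1 pair and neither in 3, and in systemic JAK1i vs AA both were lower in 7 pairs, 1 gene in 2 and neither in 1. Hist1h2ah and Hist1h2bk, 302 bases apart at their starts, were both higher in AA skin and both lower under the inhibitor. Only 8.5% and 27.4% of their 76-base windows were unique. Hist2h2ac and Hist2h2be, 239 bases apart, were not, on the scale of the counts. In AA vs healthy they had log2 fold changes of −0.07 (SE 0.20, adjusted p = 0.8) and −1.10 (SE 0.27, adjusted p = 0.0021), and in systemic JAK1i vs AA of −0.50 (SE 0.20, adjusted p = 0.04) and 0.74 (SE 0.27, adjusted p = 0.025). Hist2h2be had only 5 to 20 counts in an AA library, and neither of its calls held on median-centred TPM. Its systemic JAK1i vs AA call was also lost without AA B, AA D or systemic JAK1i B. The annotated Hist2h2ac transcript ended near a stem-loop, and none was found in that of Hist2h2be.

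Promoter letters and transcript ends were set beside the AA vs healthy values as a description. The octamer was found in H2A and H2B promoters only, so it is read within those classes. Among H2A genes 4 of 6 with it and 5 of 8 without it were higher, with median log2 fold changes of 1.16 and 0.91, and among H2B genes 3 of 3 with it and 3 of 7 without it, with medians of 0.98 and 0.74. With TATAAA 16 of 26 members were higher, and without it 8 of 19, beside 20.6% of all genes. These counts pool classes that differ in their calls. Among H1 genes 4 of 4 with it and 0 of 1 without it were higher. The H2A counts were 5 of 8 and 4 of 6, and the H2B counts 4 of 5 and 2 of 5. The H3 counts were 0 of 1 and 2 of 3, and the H4 counts 3 of 8 and 0 of 4. With CCAAT 22 of 36 were higher, and without it 2 of 9, all 9 of them H4 genes. The median log2 fold change was 0.89 for members whose annotated transcript ends within 100 bases of the stem-loop, 0.40 for those that run on and 0.90 for those with no stem-loop found.

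Genes that act in S phase and the cell cycle were taken as 34 genes, all of them tested. In AA vs healthy 26 were higher and 0 lower, with a median log2 fold change of 0.67, and in systemic JAK1i vs AA 27 were lower and 0 higher. In systemic JAK1i vs healthy 0 of 34 were called, and in 8w off Tx vs healthy 26 were higher. The shares of all genes were 20.6% higher in AA vs healthy, 24.4% lower in systemic JAK1i vs AA and 16.7% higher in 8w off Tx vs healthy. Mki67, a marker of dividing cells, lay at 137 to 253 CPM (median 179.8) in healthy skin, 305 to 564 (median 450.3) in AA skin and 121 to 192 (median 156) in systemic JAK1i skin and rose in AA by 1.29 (SE 0.18, adjusted p = 1.0e-05). Mcm10, a factor in the start of DNA replication, rose by 1.66 (SE 0.21, adjusted p = 4.3e-06), Cdc6, which licenses replication origins, by 1.398 (SE 0.18, adjusted p = 4.3e-06) and Top2a, a DNA topoisomerase, by 1.33 (SE 0.17, adjusted p = 5.1e-06). The summed S phase level was 798 to 1192 CPM (median 959.7) in healthy skin, 1268 to 2121 (median 1782) in AA skin and 798 to 1009 (median 847) in systemic JAK1i skin, and 1246 to 1925 CPM (median 1554) in 8w off Tx skin. Its AA libraries all lay above the healthy and the systemic JAK1i ones.

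Of 16 genes for transcription and processing of histone mRNA, 8 were higher and 1 lower in AA skin, with a median of 0.19. The shares of all genes were 20.6% higher and 19.2% lower. Slbp, which binds the stem-loop, lay at 20.6 to 28.3 CPM (median 24.5) in healthy skin, 28.02 to 41.9 (median 34.8) in AA skin and 22.6 to 32.2 (median 26.8) in systemic JAK1i skin and rose in AA by 0.50 (SE 0.13, adjusted p = 0.0036). Npat, the coactivator of histone gene transcription, had 0.16 (SE 0.08, adjusted p = 0.12). Cpsf2, a subunit of the cleavage machinery, rose by 0.43 (SE 0.07, adjusted p = 3.8e-05) and Upf1, a helicase that acts in histone mRNA decay, by 0.26 (SE 0.09, adjusted p = 0.021), a call lost without healthy C, healthy F or AA D (adjusted p = 0.0545 to 0.0699), with no filter (adjusted p = 0.0686), with only the 2 groups compared (adjusted p = 0.0991) and on median-centred TPM (adjusted p = 0.0674). Srrt, which links the cap-binding complex to RNA processing, had 0.10 (SE 0.07, adjusted p = 0.23). Lsm11, a protein of the U7 snRNP that cuts histone pre-mRNA, went the other way: it lay at 16.95 to 25.8 CPM (median 21.5) in healthy skin, 9.95 to 16.1 (median 14.3) in AA skin and 18.8 to 20.7 (median 19.8) in systemic JAK1i skin, fell in AA by 0.61 (SE 0.11, adjusted p = 2.1e-04) and was higher in systemic JAK1i than in AA skin by 0.52 (SE 0.11, adjusted p = 7.4e-04). In systemic JAK1i vs AA 9 of the 16 were lower and 2 higher, beside 24.4% and 22.7% of all genes.

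Of 16 histone chaperones, 9 were higher and 0 lower in AA skin, with a median of 0.27, and in systemic JAK1i vs AA 10 were lower and 1 higher. The shares of all genes were 20.6% higher and 19.2% lower in AA skin, and 24.4% lower and 22.7% higher in systemic JAK1i vs AA. Daxx, which deposits H3.3 together with Atrx, rose in AA by 0.91 (SE 0.15, adjusted p = 6.8e-05), and Atrx had 0.00 (SE 0.05, adjusted p = 1). Hira, another H3.3 chaperone, rose by 0.38 (SE 0.07, adjusted p = 3.1e-04), and its partner Ubn1 by 0.22 (SE 0.06, adjusted p = 0.004). The list of replication-independent histone genes held 11, with 10 tested, of which 5 were higher and 1 lower in AA skin at a median of 0.24. Whether each of them is made outside S phase was not checked here. H2afx, the H2A variant phosphorylated at DNA breaks, rose by 1.05 (SE 0.17, adjusted p = 4.8e-05) and fell with the inhibitor by 1.69 (SE 0.17, adjusted p = 2.9e-07). H2afy, which encodes macroH2A, rose by 0.36 (SE 0.06, adjusted p = 8.7e-05) and H3f3b, which encodes H3.3, by 0.28 (SE 0.09, adjusted p = 0.015). On median-centred TPM neither Ubn1 (adjusted p = 0.0986) nor H3f3b (0.0775) was called, and without healthy A and E H3f3b was not either (adjusted p = 0.0619). H1f0, the linker histone of non-dividing cells, had 0.20 (SE 0.09, adjusted p = 0.073). In systemic JAK1i vs healthy none of these 3 lists had a gene called, and 8w off Tx vs AA had none either.

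**Figure D5:**
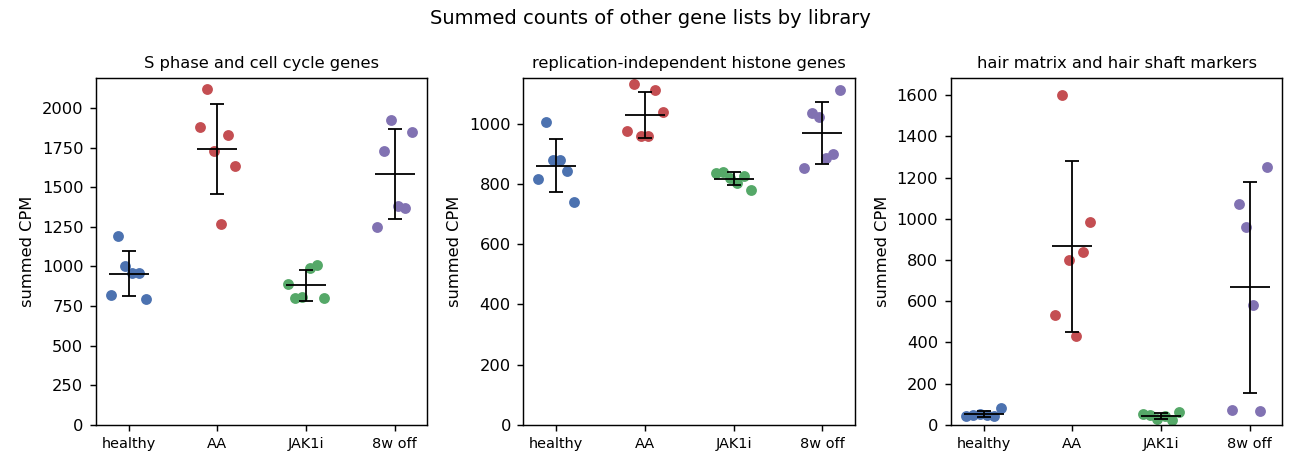
Summed CPM of the S phase and cell cycle genes, the replication-independent histone genes and the hair matrix and hair shaft markers in each library, by group. For the S phase genes and the hair markers the 6 AA libraries lie above the 6 healthy and the 6 systemic JAK1i libraries, and 8w off Tx libraries A and E lie with the healthy libraries for the hair markers.

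Markers of other cell types were counted in the same fit, where 39.8% of all genes were called in AA vs healthy. All 9 hair matrix and hair shaft markers tested were higher in AA skin and lower in systemic JAK1i than in AA skin. Of the T cell markers 3 of 8 were higher in AA skin, with summed levels of 19.5 to 38.9 CPM (median 30.8) in healthy skin, 32.3 to 125 (median 69.2) in AA skin and 17.8 to 37.2 (median 26.1) in systemic JAK1i skin. The myeloid markers had 2 of 6 higher, the epidermal keratinocyte markers 2 of 5 higher and the fibroblast markers 2 of 5 lower, while 0 of 6 skeletal muscle markers were called, and the 1 B and plasma cell marker tested was higher. In systemic JAK1i vs AA 6 of 8 T cell markers, 2 of 6 myeloid and 2 of 5 keratinocyte markers were lower. Higher there were 3 of 5 fibroblast and 2 of 6 muscle markers, with 47.1% of all genes called. How far any of these cells enter the histone values was not tested.

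Rows were ranked by likeness to the members' summed level over the 24 libraries, with the members found by symbol left out. The first was a gene given only by its identifier, ENSMUSG00000096807, at a Pearson correlation of 0.945, followed by ENSMUSG00000075032 at 0.941. Neither has a symbol in the tables used, so the member rule could not be applied to them. Whether either is itself a histone gene was not checked, so their likeness may be that of further members. Next came Aurkb, the mitotic kinase Aurora B, at 0.927, Kif11, a spindle motor protein, at 0.926 and Fignl1, a DNA repair factor, at 0.925. The points share libraries and depth, and the values are given as a description.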

How the data were processed

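Dorsal skin of C3H/HeJ mice was profiled in 24 libraries, 6 per group, grouped by the labels. Per the study's methods, libraries were made with a stranded total RNA kit with ribosomal depletion and sequenced as read pairs of 76 bases. The authors deposited raw counts per gene, for which the submitters' processing notes name HISAT2 2.0.1 and featureCounts 1.4.4 on mm10 (GRCm38), and TPM per gene, the tool for which, like the strand and multiple-mapping settings, is not given in the sources used here. Reads that fit several histone copies may be lost or assigned by the counter, which bears on every near-identical member. Each table holds 6 further columns that matched no sample's labels and were not used.

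Gene symbols came from GENCODE M21, matched by identifier, and 1324 of 39017 rows had none. Genes with at least 10 counts in at least 6 libraries were tested with edgeR 4.0.16 (TMM, glmQLFit, glmQLFTest, R 4.3.3) in 1 fit of all 24 libraries, and 6 comparisons were made. A gene was called at an adjusted p (Benjamini-Hochberg over all 16558 genes) below 0.05. CPM are counts per 1000000, scaled by TMM. The script was tested on simulated counts. Libraries held 3444193 to 11233020 counts, which limits the precision of members with few counts. No 2 libraries agreed within sampling noise. The labels do not say which libraries share a mouse, so p-values measure the spread between these samples.

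Named with values were, within each class, the 3 members with the smallest adjusted p in AA vs healthy and the 2 with the highest mean CPM. Added to them were members called in systemic JAK1i vs healthy, members called against the main direction and testis forms, and the genes of each list chosen likewise, with Slbp, Npat, H2afx, H3f3b and Mki67. Hist2h2ac and the near-identical pairs were named after their values were seen. The members and lists were chosen with earlier results of these data known. Stem-loops were searched in GENCODE M21 transcripts, and promoters came from RefSeq on GRCm38.p6. Alternatives were RLE normalization, other filters, DESeq2 1.42.0, limma-voom (limma 3.58.1), a block on the replicate letter, only the 2 groups compared, log2(TPM + 0.1) and log2(TPM + 1) with limma, leaving out libraries, and, chosen after seeing the data, near-identical copies summed.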

Additional observations from a re-analysis of the deposited data

Results flagged for a closer look

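In groups of 6, the highest or lowest library was checked for a gap to its nearest neighbour above Dixon's 95% critical value, as a share of the group's range. Over 124 groups checked, 5 had such a gap, and chance flags about 1 in 20 groups. Summed H2A genes were lowest in systemic JAK1i F, at 65.1 CPM against 86.1 CPM in the next library. Systemic JAK1i B was the highest of its group for 3 genes, with Hist1h2ah at 5.70 CPM (next 2.99), Hist1h3c at 11.8 CPM (next 5.55) and Hist2h4 at 25.2 CPM (next 18.5). Hist1h2ah was highest in 8w off Tx B, at 22.4 CPM against 14.1 CPM in the next library.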

How the results depend on the processing

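On the counts, under RLE normalization, other filters, DESeq2, limma-voom, only the 2 groups compared and summed copies, the members called stayed within 1.5 times of 28 in AA vs healthy, 41 in systemic JAK1i vs AA and 42 in 8w off Tx vs systemic JAK1i, and 8w off Tx vs AA had 0 under every alternative. On log2(TPM + 0.1) and log2(TPM + 1) the counts were 3 and 3 in AA vs healthy, 20 and 22 in systemic JAK1i vs AA, 0 and 0 in systemic JAK1i vs healthy, 10 and 10 in 8w off Tx vs healthy and 8 and 8 in 8w off Tx vs systemic JAK1i. With no filter on log2(TPM + 0.1) they were 0, 12, 0, 11 and 5, and median-centred TPM gave 31, 44, 1, 12 and 44. Centring alone brought AA vs healthy, systemic JAK1i vs AA and 8w off Tx vs systemic JAK1i back within 1.5 times. Systemic JAK1i vs healthy, 3 as reported, became 1 with no filter, 16 with DESeq2, 19 with limma-voom, 8 with only the 2 groups compared, 1 without healthy A and E and 12 without 8w off Tx A and E. The shares of all genes called were 0.36%, 3.69%, 12%, 1.72%, 0.0725% and 1.76%, in that order. For 8w off Tx vs healthy, 22 as reported, the values were 14 with only the 2 groups compared, 11 without healthy A and E and 35 without 8w off Tx A and E. All genes called were 32.3% as reported and 25.8% with only the 2 groups compared. That share is not given for the settings without A and E, so those counts are not a result about the members alone. The cause of these changes was not tested. Of the named members called on the counts, leaving out 1 library ended the call of 2 of 19 in AA vs healthy, 2 of 24 in systemic JAK1i vs AA, 3 of 3 in systemic JAK1i vs healthy, 6 of 16 in 8w off Tx vs healthy and 3 of 24 in 8w off Tx vs systemic JAK1i. Leaving out 1 library gave 23 to 31 members in AA vs healthy, 37 to 43 in systemic JAK1i vs AA, 0 to 14 in systemic JAK1i vs healthy, 14 to 28 in 8w off Tx vs healthy and 37 to 44 in 8w off Tx vs systemic JAK1i. The share of all genes called was then 34.5% to 43.2%, 42.3% to 48.8%, 0.278% to 3.93% and 27.3% to 36.6%, in that order. It is not given for 8w off Tx vs systemic JAK1i.

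Values on TPM are read against the all-gene median of the same scale, and 6 single values then changed sign. On log2(TPM + 1) Hist2h2be was fitted at 0.42 in systemic JAK1i vs AA, where all genes had a median of 0.51, and at −0.47 in 8w off Tx vs healthy, where the median was −0.61. In the latter Atrx was at −0.77, and Lsm11 was at −0.79 in 8w off Tx vs systemic JAK1i, where the median was −0.91. With no filter on log2(TPM + 0.1), Atrx was at −0.78 and Npat at −0.65 in 8w off Tx vs healthy, where the median was −0.63. The differences from those medians were −0.08, 0.14, −0.16, 0.12, −0.15 and −0.01, in that order, against 0.74, −0.73, 0.17, −0.32, 0.17 and 0.30 on the counts.

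Over all groups together, same-letter libraries were not more alike than others by the median. Same-letter libraries of different groups had a median correlation of deviations of −0.11 (36 pairs, 7 above 0.1), against 0.04 for different letters. These pairs span all combinations of groups, so the median cannot decide whether letters pair systemic JAK1i with 8w off Tx libraries. With the letter as a replicate block the counts were 26, 40, 1, 18, 0 and 41, in the order AA vs healthy, systemic JAK1i vs AA, systemic JAK1i vs healthy, 8w off Tx vs healthy, 8w off Tx vs AA and 8w off Tx vs systemic JAK1i. That block called 38.0% of all genes in AA vs healthy and 45.1% in systemic JAK1i vs AA. Against healthy skin, the shares were 0.634% for systemic JAK1i and 30.0% for 8w off Tx. The other shares are not given.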
